A study of Mus musculus with 12 samples.

Results

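Vim, Zeb2, Cdh2 and Fn1 are 4 genes commonly read as signs of the epithelial to mesenchymal transition, taken here by their symbols from a table of 7318 genes. Their RNA and ribosome footprints were counted in mammary gland cells of female FVB/N mice that carried both MMTV-Wnt1 and MMTV-iFgfr1, at 4 weeks of age and 6 h after an intraperitoneal injection. The -iFGFR1 mice received vehicle and the +iFGFR1 mice received AP20187, a compound that pairs and so activates the inducible FGF receptor 1. Each treatment had 3 RNA libraries and 3 footprint libraries, 12 in all, so the 4 groups were RNA with vehicle, RNA with AP20187, footprints with vehicle and footprints with AP20187. The vehicle groups carry the Wnt1 transgene too, and the series describes these cells as WNT-hyperactive. MMTV is a viral promoter that drives both transgenes in the mammary epithelium. No group received AP20187 without iFGFR1, and any action of AP20187 on its own cannot be told apart from that of the receptor. The cells came from glands digested with collagenase in the presence of cycloheximide and enriched for epithelium by short spins, with no sort given in the labels. Whether a library came from 1 mouse or a pool is not stated, and the p-values then measure how these particular libraries vary, some of which may be technical.

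The epithelial to mesenchymal transition is a change of cell state in which epithelial cells loosen their junctions, exchange keratins and E-cadherin for vimentin and N-cadherin, and lay down a fibronectin-rich matrix. Zeb2 encodes a zinc-finger repressor that binds E-box sequences and represses Cdh1, the gene of E-cadherin. Cdh2 encodes N-cadherin, a calcium-dependent adhesion molecule. Vim encodes the intermediate filament protein vimentin, and Fn1 encodes fibronectin, a large matrix glycoprotein bound by integrins. In the mammary gland all 4 are also ordinary products of cells that are not epithelial. Fibroblasts, endothelial cells and leukocytes make vimentin, stromal cells make fibronectin, and Zeb2 is used by leukocytes and other stromal cells.

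ZEB2 is known for a mutual repression with the miR-200 family of microRNAs, which bind its 3′ UTR in epithelial cells. The 5 mature microRNAs of that family are shown because they are the sequence link between this group of genes and the epithelial state. They are RefSeq sequences for GRCm38.p6, written 5′ to 3′, with the seed (bases 2 to 8) in capitals.
miR-200b-3p: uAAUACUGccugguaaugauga
miR-200c-3p: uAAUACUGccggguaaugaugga
miR-429-3p: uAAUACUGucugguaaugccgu
miR-200a-3p: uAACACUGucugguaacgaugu
miR-141-3p: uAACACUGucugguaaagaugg
The first 3 share the seed AAUACUG and the other 2 share AACACUG. The letters that pair with these seeds, CAGTATT and CAGTGTT, were searched on the mRNA strand of the longest annotated 3′ UTR of each gene (GENCODE M21, GRCm38). The Zeb2 transcript Zeb2-212 has a 3′ UTR of 4941 bases, which holds 5 copies of CAGTATT and 4 of CAGTGTT. An example of each is shown with the match in capitals, 5′ to 3′ on the mRNA strand.
Zeb2 CAGTATT match, chr2:44988173-44988202, minus strand: aggtgcccgcactaccatacatCAGTATTt
Zeb2 CAGTGTT match, chr2:44988357-44988386, minus strand: tgcattatgcaaaaattttgtaCAGTGTTa
In Fn1 the 3′ UTR of 692 bases holds 1 copy of each. None was found in the 342 bases of Vim or the 1270 bases of Cdh2. Among 7108 listed genes with an annotated 3′ UTR, 30.1% hold at least 1 match, and Zeb2 is the 1 gene with as many as 9. A longer 3′ UTR gives more room for matches, and a match in the letters is not a measured site. MicroRNAs were not counted in these libraries.

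By position in GRCm38, Vim (ENSMUSG00000026728.9) lies on the plus strand of chromosome 2 from 13573927 to 13582826, with 2193 bases of merged exons of which 1398 are coding. Zeb2 (ENSMUSG00000026872.17) lies on the minus strand of chromosome 2 from 44983632 to 45117395, with 11443 bases of exons and 3820 coding. Fn1 (ENSMUSG00000026193.15) lies on the minus strand of chromosome 1 from 71585520 to 71653200, with 8479 bases of exons and 7544 coding. Cdh2 (ENSMUSG00000024304.14) lies on the minus strand of chromosome 18, with 4955 bases of exons and 2719 coding. Annotated antisense genes overlap Zeb2 (Zeb2os), Cdh2 (Gm15485) and Fn1 (Apol7d). The strand setting of the counting is not given in the sources used here, so reads of these partners cannot be told apart from those of the 3 genes.

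All 4 genes passed the filter on low counts in both assays. Over the listed genes, the RNA libraries held 94513818 to 251874393 counts and the footprint libraries 1772969 to 11018709. A floor of 3 counts then equals 0.0121 to 0.0322 CPM (counts scaled to a common library size) in RNA and 0.282 to 1.64 CPM in footprints, counting error only. CPM values below are scaled by the TMM method within each assay. Replicates of a group correlated across genes with r of 0.95 to 0.987 in RNA and 0.851 to 0.96 in footprints. Counts of the rows of the transgenes rose in RNA with AP20187, Fgfr1 from 325 ± 50.8 to 810 ± 267 CPM (SD, n = 3; log2 fold change 1.32, adjusted p = 0.0106 by edgeR) and Wnt1 from 28.9 ± 17.0 to 221 ± 80.5 CPM (SD, n = 3; 2.93, adjusted p = 0.00791). Wnt1 RNA was therefore not at the same level in both treatments, and its part in the results below cannot be told apart from that of FGFR1 activation.

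RNA of all 4 genes was lower with AP20187. The falls were 2.32-fold for Vim, 2.76-fold for Zeb2, 2.82-fold for Fn1 and 3.62-fold for Cdh2. In no case did the vehicle and AP20187 libraries overlap. Of the 7314 genes tested, 13.9% passed the test (adjusted p under 0.05, edgeR's quasi-likelihood test, Benjamini-Hochberg over all genes) in the lower direction, 12.4% in the higher direction and 26.2% in either. Groups that did not overlap, with AP20187 lower, were found for 23.1% of all genes, and groups apart in either direction for 45%. In bulk samples, fewer cells of a type and less RNA per cell cannot be told apart.

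Zeb2, the repressor, had RNA levels of 56.0, 48.2 and 84.4 CPM in vehicle libraries 1, 2 and 3, and of 22.7, 28.9 and 16.8 CPM with AP20187. The lowest vehicle library lay above the highest AP20187 library. The group means were 62.8 ± 19.0 and 22.8 ± 6.02 CPM (SD, n = 3). The log2 fold change was -1.46 ± 0.27 (SE), with an adjusted p of 0.00971 by edgeR. The call was lost when the 6 footprint libraries entered the fit and shared its estimate of spread, where the value was -1.47 with an adjusted p of 0.0718.

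Cdh2, the cadherin, was the lowest of the 4 in RNA CPM and had the largest fall. Vehicle libraries 1, 2 and 3 held 12.2, 8.39 and 9.74 CPM and AP20187 libraries held 2.16, 4.38 and 1.83 CPM. Library 2 was the lowest of the vehicle group and the highest of the AP20187 group, and the groups still did not overlap. Means were 10.1 ± 1.90 and 2.79 ± 1.39 CPM (SD, n = 3). By edgeR the log2 fold change was -1.86 ± 0.37 (SE), with an adjusted p of 0.0123. Only 1.85% of the genes tested had a more negative value.

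Vim, the filament gene, gave 398, 409 and 582 CPM in the vehicle libraries and 182, 217 and 200 CPM in the AP20187 libraries. The AP20187 libraries were close together, and vehicle library 3 stood above the other 2 vehicle libraries. Means fell from 463 ± 103 to 200 ± 17.3 CPM (SD, n = 3), a log2 fold change of -1.21 ± 0.18 (SE) with an adjusted p of 0.00684 by edgeR. This was the smallest fall of the 4, and 4.88% of all genes had a more negative value.

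Fn1, the matrix gene, stood at 553, 384 and 634 CPM with vehicle and at 192, 205 and 160 CPM with AP20187. The AP20187 libraries were close together, and all lay well below the lowest vehicle library. Means were 524 ± 127 and 186 ± 23.3 CPM (SD, n = 3). The log2 fold change of -1.50 ± 0.21 (SE) had an adjusted p of 0.00625 by edgeR. Vehicle library 3 was the highest of its group for Vim, Zeb2 and Fn1 and the middle one for Cdh2.

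**Figure D1:**
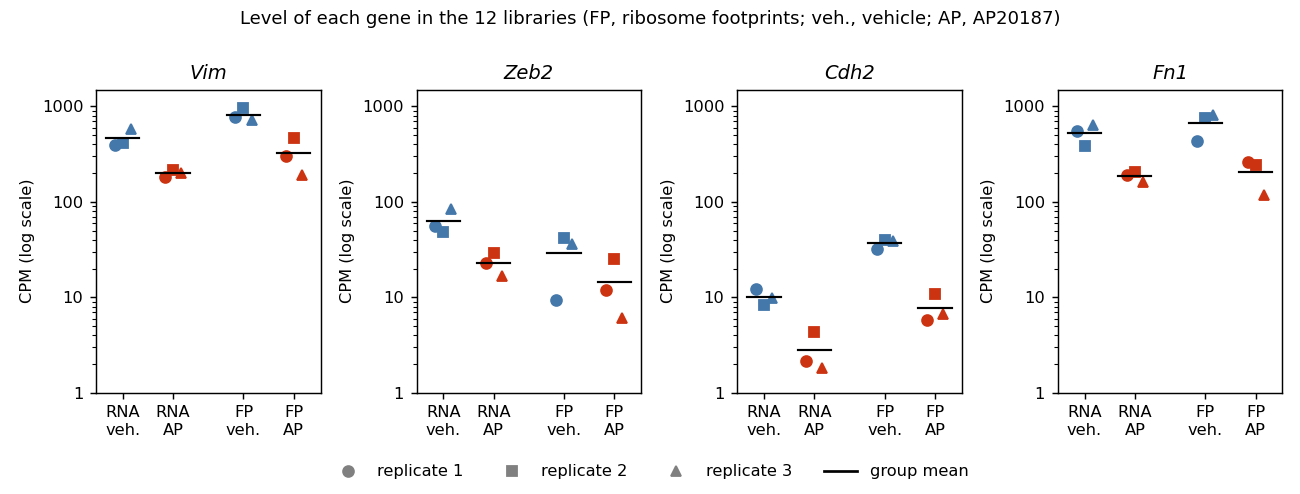
CPM of Vim, Zeb2, Cdh2 and Fn1 in each of the 12 libraries, on a log axis, with vehicle and AP20187 groups side by side for RNA and for ribosome footprints (FP); points are libraries, shaped by replicate number, and bars are group means. The RNA groups do not overlap for any of the 4 genes, while the Zeb2 footprint groups do, with vehicle library 1 at 9.30 CPM inside the AP20187 range of 6.10 to 25.4 CPM.

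Ribosome footprints are the mRNA fragments covered by ribosomes, so their level follows both how much transcript there is and how densely it is occupied. Footprints of Cdh2 and Fn1 fell with AP20187, by 4.84-fold and 3.25-fold, and those of Vim and Zeb2 did not pass edgeR's test. The Vim result depended on the fit, since Vim passed by DESeq2, by limma voom and with all 12 libraries in the fit. In this assay 1.6% of the 7041 genes tested passed in the lower direction, 0.937% in the higher and 2.54% in either. Groups with AP20187 lower and no overlap were seen for 11.8% of all genes and for Vim, Cdh2 and Fn1 here.

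For Cdh2 the vehicle libraries held 31.7, 39.8 and 38.7 footprint CPM, from 58, 73 and 148 counts, and the AP20187 libraries 5.73, 10.7 and 6.64 CPM, from 61, 35 and 25 counts. The lowest vehicle library was thus far above the highest AP20187 library. Means were 36.8 ± 4.37 and 7.70 ± 2.67 CPM (SD, n = 3), with a log2 fold change of -2.27 ± 0.41 (SE) and an adjusted p of 0.0237 by edgeR. Only 1.04% of the genes tested had a more negative value. For Fn1 the vehicle libraries held 433, 763 and 815 CPM and the AP20187 libraries 259, 241 and 118 CPM. Vehicle library 1 was the lowest of its group and AP20187 library 3 the lowest of all 6. Means were 670 ± 207 and 206 ± 76.6 CPM (SD, n = 3), with a log2 fold change of -1.70 ± 0.36 (SE) and an adjusted p of 0.0384 by edgeR. These calls rest on having 6 libraries. The Cdh2 call was lost without vehicle library 1 (adjusted p = 0.0566), 2 (0.0916) or 3 (0.0742) or AP20187 library 1 (0.129), and the Fn1 call without any of these (0.0566, 0.134, 0.113 and 0.0895) or AP20187 library 2 (0.0517), all by edgeR. With any 1 of the first 4 of these libraries left out, 0 to 3 of all genes passed. The log2 fold changes stayed between -2.57 and -2.08 for Cdh2 and between -1.93 and -1.42 for Fn1.

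Vim footprints stood at 780, 958 and 721 CPM with vehicle and at 303, 471 and 191 CPM with AP20187. The groups did not overlap, and library 2 was the highest of each group. Means were 820 ± 123 and 322 ± 141 CPM (SD, n = 3), and the log2 fold change of -1.35 ± 0.34 (SE) had an adjusted p of 0.0653 by edgeR. With the replicate number as a block, the edgeR value was -1.43 with an adjusted p of 0.0013, and 715 in place of 179 genes passed. The labels do not state this pairing. It was read from these same counts, so the lower p-value is not separate support. Leaving out AP20187 library 2, the highest of its group, also brought the edgeR value past the threshold (-1.72, adjusted p = 0.0283).

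Zeb2 footprints were few. Vehicle libraries held 9.30, 42.0 and 35.9 CPM, from 17, 77 and 137 counts, and AP20187 libraries 12, 25.4 and 6.10 CPM, from 128, 83 and 23 counts. Vehicle library 1 lay below 2 of the AP20187 libraries, so the groups overlapped. Means were 29.0 ± 17.4 and 14.5 ± 9.91 CPM (SD, n = 3). The log2 fold change was -1.02 ± 0.62 (SE) with an adjusted p of 0.474 by edgeR, and 0.294 with the replicate block. A fall of the size seen in Zeb2 RNA lies within 1 SE of this value, so at this depth the footprints cannot tell such a fall from none.

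**Figure D2:**
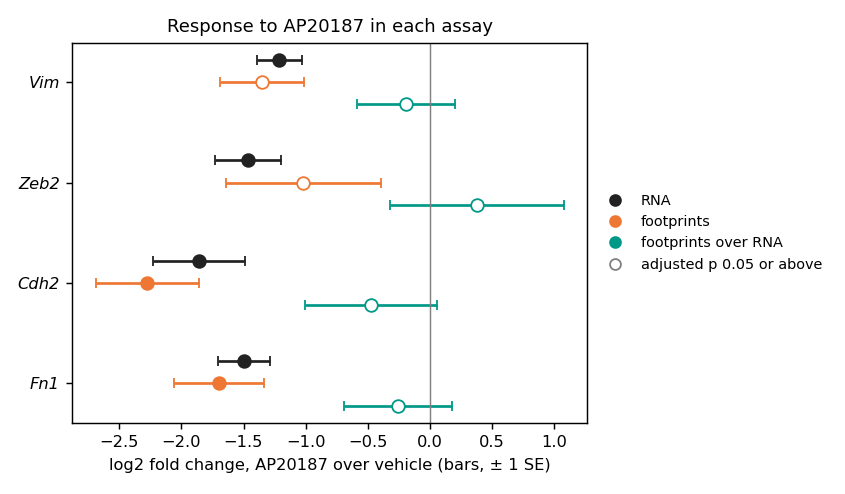
Log2 fold change of each gene, AP20187 over vehicle, in RNA and in footprints, with bars of 1 SE to each side and filled points for adjusted p under 0.05 by edgeR. All 4 RNA points are filled and lie between -1.86 and -1.21, whereas Cdh2 and Fn1 alone are filled in footprints.

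The change in translational efficiency, which is the footprint response over the RNA response, did not pass the test for any of the 4 genes. The log2 values were -0.19 ± 0.39 for Vim, 0.38 ± 0.70 for Zeb2, -0.47 ± 0.53 for Cdh2 and -0.26 ± 0.43 for Fn1 (SE), with adjusted p-values of 0.988 to 0.995 by edgeR. Across all 7315 genes tested 0 passed (0%), with 350 at an unadjusted p under 0.05, while DESeq2 called 10 genes and limma voom 0. The signs of 3 of these values turned when a library was left out. Without AP20187 footprint library 3 the Vim value became 0.12 and the Fn1 value 0.066, and without AP20187 footprint library 2 the Zeb2 value became -0.22. Cdh2 stayed below 0, between -0.76 and -0.01, when any 1 library was left out.

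Within a treatment, the ratio of footprints to RNA was tested for each gene on its own, and the genes were not tested against each other. The ratio is relative to the scaling of each assay, under which the median gene had a log2 ratio of 0.06 with vehicle, and 50.9% of genes passed the test in some direction (26.7% higher, 24.2% lower). The ratios of single samples join RNA and footprint libraries of the same number, and the fitted values do not use that pairing. Deviations from group means across genes gave r of 0.053, 0.11 and 0.344 for these pairs with vehicle. With AP20187 they gave 0.45, 0.519 and 0.37. Libraries of unlike number gave -0.257 to 0.155 with vehicle and -0.428 to -0.057 with AP20187. Cdh2 gave a ratio of footprint to RNA CPM of 2.61, 4.74 and 3.98 in the vehicle samples numbered 1, 2 and 3, and of 2.65, 2.45 and 3.63 with AP20187. Its footprints were above its RNA in every one of the 6 samples. The fitted log2 ratio was 2.01 ± 0.38 (SE, adjusted p = 0.000578 by edgeR) with vehicle, above 95.8% of all genes, and 1.54 ± 0.39 (adjusted p = 0.00625) with AP20187, where 39.9% of all genes passed, 19.4% higher and 20.5% lower.

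Vim gave ratios of 1.96, 2.34 and 1.24 with vehicle and of 1.66, 2.17 and 0.955 with AP20187. Sample 3 was the lowest of each treatment. The fitted log2 ratio was 0.97 ± 0.28 (SE, adjusted p = 0.0105 by edgeR) with vehicle and 0.78 ± 0.28 (0.0393) with AP20187. The first was lost without vehicle footprint library 2 (adjusted p = 0.0599). The second was lost without any of 7 of the 12 libraries, and without AP20187 footprint library 2 it was 0.41 with an adjusted p of 0.217. The other 6 were vehicle RNA library 1, AP20187 RNA libraries 1, 2 and 3, vehicle footprint library 1 and AP20187 footprint library 1. Under total-count scaling it was 0.72 with an adjusted p of 0.0740.

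Fn1 ratios were 0.784, 1.99 and 1.29 with vehicle and 1.35, 1.18 and 0.740 with AP20187, on both sides of 1 in each treatment. Neither fitted value passed (0.50 ± 0.31, adjusted p = 0.188, and 0.25 ± 0.31, adjusted p = 0.553, by edgeR). Zeb2 ratios were 0.166, 0.871 and 0.425 with vehicle and 0.530, 0.882 and 0.363 with AP20187. All 6 were below 1, and the fitted log2 values of -0.95 ± 0.50 (adjusted p = 0.125) and -0.58 ± 0.50 (adjusted p = 0.379) did not pass by edgeR. These ratios are per gene and not per length. Footprints lie mainly on coding sequence. Coding bases were 3820 of 11443 exon bases for Zeb2, 2719 of 4955 for Cdh2, 1398 of 2193 for Vim and 7544 of 8479 for Fn1. Any relation of this share to the ratios was not tested, and the counted region is not given in the sources used here.

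**Figure D3:**
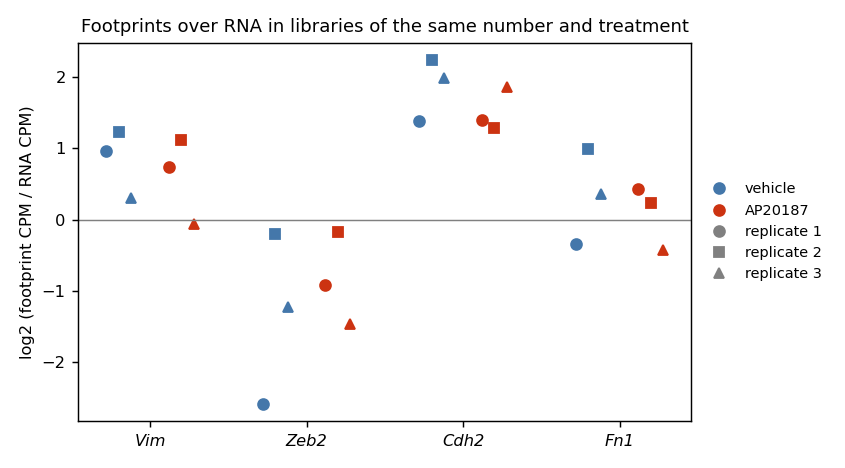
Log2 of footprint CPM over RNA CPM for each gene in the 6 pairs of libraries that share a number and a treatment; colour gives the treatment and shape the replicate number. Cdh2 lies above 0 in all 6 pairs and Zeb2 below 0 in all 6, with the lowest Zeb2 point, a ratio of 0.166, in vehicle sample 1.

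To compare levels between the genes, RNA CPM was divided by the length of the merged exons and footprint CPM by the length of the merged coding sequence. The counted region is not given in the sources used here, so these lengths are an assumption. In vehicle RNA the order was Vim at 211 ± 47.1, Fn1 at 61.8 ± 15.0, Zeb2 at 5.49 ± 1.66 and Cdh2 at 2.04 ± 0.384 CPM per kb (SD, n = 3). No neighbours in that order overlapped, since the lowest Zeb2 library had 4.21 and the highest Cdh2 library 2.45 CPM per kb. The order was the same in AP20187 RNA, with 91.1 ± 7.88, 21.9 ± 2.75, 1.99 ± 0.526 and 0.563 ± 0.280 CPM per kb (SD, n = 3), again without overlap.

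In footprints Vim and Fn1 kept the first 2 places and Cdh2 came before Zeb2. Vehicle footprint levels were 586 ± 88.0 for Vim, 88.9 ± 27.4 for Fn1, 13.5 ± 1.61 for Cdh2 and 7.60 ± 4.55 for Zeb2 in CPM per coding kb (SD, n = 3). The lowest Cdh2 library, at 11.7, was just above the highest Zeb2 library, at 10.99 CPM per coding kb. Without the division by length these vehicle footprints overlapped, at 31.7 to 39.8 CPM for Cdh2 and 9.30 to 42.0 CPM for Zeb2. With AP20187 the footprint levels of Cdh2, 2.11 to 3.95 CPM per coding kb, lay inside those of Zeb2, 1.60 to 6.66, so this pair had no order there.

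The 4 genes were unequally alike in pattern across the 12 libraries. As a measure of likeness, the root mean square difference (RMS) of log2 CPM was taken after centring each gene on its mean within each assay, with a prior count of 2, so that 0 is an identical pattern. Vim and Fn1 were the closest pair, at an RMS of 0.328, and Zeb2 and Cdh2 the farthest apart, at 0.734. The other pairs lay between, with 0.464 for Cdh2 and Fn1, 0.482 for Zeb2 and Fn1, 0.528 for Vim and Cdh2 and 0.537 for Vim and Zeb2. Over 7040 genes the median RMS was 0.821 to Vim, 0.957 to Fn1, 0.971 to Zeb2 and 1.17 to Cdh2. Every pair among the 4 genes lay below these medians. Zeb2 footprints rest on few counts, as low as 17 in a vehicle library. The part of counting noise in the Zeb2 distances was not tested.

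None of the 4 was among the 5 genes most like another of them. Nearest to Vim were Gucy1b3, a subunit of soluble guanylate cyclase (RMS 0.156), Phldb1 (0.175), Oat, ornithine aminotransferase (0.176), Pecam1, an adhesion molecule of endothelial cells (0.179), and Mapre2, a microtubule end-binding protein (0.184). Fn1 had Entpd2 (0.211), Gucy1b3 again (0.223), Col6a2, a collagen VI chain (0.235), Alox15 (0.241) and Atp2a3 (0.247). Cdh2 had Astn2 (0.208), Prob1 (0.212), Mylk, the myosin light chain kinase (0.241), Mme, the peptidase neprilysin (0.242), and Pgm5 (0.244). The neighbours of Zeb2 were farther off, namely Plekhg1 (0.257), Enpep, an aminopeptidase (0.271), Arhgef25 (0.295), Ston1 (0.319) and Dock10 (0.340). These genes were chosen for the likeness, so their own changes carry no test here. Their RNA log2 fold changes with AP20187 ran from -2.15 (Astn2) to -0.75 (Arhgef25). Pecam1, Col6a2 and Mylk also stand in the marker lists of other cell types used below.

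Other genes of the transition were followed in 7 lists. Beside the counts below, 13.9% of all genes fell and 12.4% rose in RNA by edgeR. In footprints these shares were 1.6% and 0.937%. The transcription factors of the transition are thinly covered, as 3 of 13 listed other than Zeb2 are in the table. Zeb1, Snai1, Snai2, Twist1 and Twist2 were listed and not measured. Prrx1, a homeobox factor of mesenchyme, went from 18.6 ± 6.34 to 7.59 ± 2.89 RNA CPM (SD, n = 3; log2 fold change -1.29, adjusted p = 0.0269 by edgeR). Tcf4, an E-box factor, went from 205 ± 16 to 154 ± 16 CPM (SD, n = 3; -0.42, adjusted p = 0.0490 by edgeR). Tcf3 was at 0.20 and did not pass. In footprints 0 of the 3 passed by edgeR, DESeq2 or limma voom, with 1 at an unadjusted p under 0.05 by edgeR. In RNA 2 of 3 fell, with a list median of -0.42 against 0.01 for all genes. Both calls were lost without vehicle RNA library 1 or 3 or AP20187 RNA library 1, and Tcf4 also without AP20187 RNA library 2 or 3.

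Of 30 other mesenchymal matrix, adhesion and cytoskeleton genes, 14 were measured, and in RNA 8 fell, 1 rose and 5 did not pass, with a median log2 fold change of -0.998. Col1a1 and Col1a2, the chains of collagen I, fell from 1411 ± 397 to 496 ± 89.1 and from 1728 ± 514 to 577 ± 128 CPM (SD, n = 3; adjusted p = 0.0077 and 0.00819 by edgeR). Ncam1, a neural cell adhesion molecule, fell from 6.68 ± 2.01 to 1.50 ± 0.929 CPM (SD, n = 3; adjusted p = 0.0168 by edgeR), a call lost without vehicle RNA library 1 or 3. Spp1, the secreted phosphoprotein osteopontin, went the other way, from 492 ± 266 to 4954 ± 1204 CPM (SD, n = 3; log2 fold change 3.33, adjusted p = 0.0059 by edgeR). The summed RNA of the list, Spp1 included, overlapped between treatments, at 9255 to 13553 CPM with vehicle and 10249 to 12900 CPM with AP20187. The sum without Spp1 was not taken. The number that fell was 4, 5 and 2 without vehicle RNA libraries 1, 2 and 3, and 3 without AP20187 RNA library 1. In footprints 3 of the 14 fell (S100a4, Col1a1 and Col1a2) and Spp1 rose, none of which passed without any 1 of the 3 vehicle footprint libraries or AP20187 footprint library 1. With the replicate block 8 fell.

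Epithelial genes did not move in 1 direction. Of 33 listed, 23 were measured, and 8 rose, 5 fell and 10 did not pass, with a median of -0.01. Cldn7, a claudin of tight junctions, rose from 115 ± 9.80 to 277 ± 7.28 CPM (SD, n = 3; adjusted p = 0.00494 by edgeR). Epcam, an epithelial adhesion molecule, rose from 684 ± 36.6 to 1397 ± 81.3 CPM (SD, n = 3; adjusted p = 0.00625 by edgeR). Among keratins of simple epithelia, Krt7 fell from 608 ± 68.5 to 165 ± 74.6 CPM and Krt19 from 751 ± 85.3 to 342 ± 45.9 CPM (SD, n = 3; adjusted p = 0.00755 and 0.0066 by edgeR). Cdh1, the target of Zeb2 named above, was among the 8 that rose, with a log2 fold change of 0.61 and an adjusted p of 0.0365 by edgeR, and is named here after its value was seen. That call was kept only without AP20187 RNA library 3, with an adjusted p of 0.0569 to 0.135 by edgeR when any 1 of the other 5 RNA libraries was left out. The number that rose was 5, 3 and 5 without vehicle RNA libraries 1 and 3 and AP20187 RNA library 1, and the number that fell was then 3. In footprints Krt7 and Krt19 fell and 0 rose by edgeR (5 at an unadjusted p under 0.05, 1 by DESeq2 and 1 by limma voom), and neither keratin passed without any of 5 of the 6 footprint libraries, AP20187 library 3 being the exception. With the replicate block 2 epithelial genes rose in footprints.

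The partners of the single proteins were followed in lists of their own. Of 9 measured fibronectin receptors and cross-linkers, Itga5, the α chain of the main fibronectin integrin, fell from 134 ± 26.5 to 62.9 ± 6.29 RNA CPM (SD, n = 3; adjusted p = 0.00736 by edgeR), and 8 did not pass, Itgb1 among them at -0.18 (median -0.18). A share of 1 in 9 is near the 13.9% of all genes that fell. Without vehicle RNA library 2 the number that fell was 2, and without AP20187 RNA library 2 the number that rose was 2 in place of 0. The 5 measured genes of the catenin list are 4 catenins and Vcl (vinculin), which binds α-catenin and actin and not cadherins. Vcl fell from 1364 ± 356 to 577 ± 52.9 CPM and Ctnnb1 (β-catenin) from 1447 ± 46.8 to 1024 ± 54.2 CPM (SD, n = 3; adjusted p = 0.00882 and 0.0352 by edgeR), with a median of -0.27. The Ctnnb1 call was lost without vehicle RNA library 1 or 3 or AP20187 RNA library 1 or 3. In footprints 0 members of either list passed by edgeR, with 1 of each lower at an unadjusted p under 0.05. DESeq2 called 1 gene of the catenin list and 0 fibronectin receptors, and limma voom 0 of both.

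Among the 9 genes listed as intermediate filament partners of vimentin, Plec (plectin) with them, 3 fell and 1 rose, with a median of -0.24. Nes (nestin), which co-assembles with vimentin, rose from 39.9 ± 9.13 to 128 ± 12.5 CPM (SD, n = 3; adjusted p = 0.0059 by edgeR). Des (desmin, of muscle cells) fell from 20.1 ± 4.67 to 6.59 ± 1.01 CPM, and Gfap from 4.86 ± 1.38 to 1.05 ± 0.142 CPM (SD, n = 3; adjusted p = 0.00684 and 0.00685 by edgeR). Lmna, a nuclear lamin, fell by 0.65 on the log2 scale (adjusted p = 0.0426 by edgeR), and its call was kept only without vehicle RNA library 2. Of 8 measured genes of the TGF-β pathway, a known inducer of the transition, Eng fell by 0.72 and Smad4 by 0.66 on the log2 scale (adjusted p = 0.0131 and 0.0168 by edgeR), and 6 did not pass (median -0.26). With 2 of 8 called, the list is near the 26.2% of all genes called in RNA. Eng lost its call without vehicle RNA library 3 or AP20187 RNA library 1, and Smad4 without vehicle RNA library 1 or 3. Without AP20187 RNA library 3, 1 member of this list rose in place of 0. In footprints 0 genes of the filament and TGF-β lists passed by edgeR, with 4 and 1 at an unadjusted p under 0.05. DESeq2 called 1 in each list, and limma voom 0 and 1.

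Markers of several other cell types moved with the 4 genes. The counts of markers called in RNA stand beside 13.9% of all genes that fell and 12.4% that rose. Of 15 fibroblast markers 9 were measured, and their summed RNA was 3872 to 6591 CPM with vehicle and 1495 to 2035 CPM with AP20187. Of these 9, 8 fell and 1 did not pass, with a median of -1.45, and 8 or 9 fell when any 1 library was left out. Summed RNA of 5 of 11 endothelial markers was 608 to 818 CPM with vehicle and 336 to 371 CPM with AP20187, and all 5 fell (2 without vehicle RNA library 3, 3 without AP20187 RNA library 1). Of 8 pericyte and smooth muscle markers 6 were measured, at 985 to 1374 CPM and 561 to 750 CPM, and 3 fell (2 without vehicle RNA library 1 or 3 or AP20187 RNA library 1). The summed level of these 3 lists was lower with AP20187 without overlap, as was the level of each of the 4 genes. The same held for the mast cell, adipocyte and basal epithelial sums given below, and for 23.1% of all genes.

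Mast cell markers, 4 of 8, were at 11.6 to 39.9 CPM with vehicle and 0.838 to 2.19 CPM with AP20187, and all 4 fell. Adipocyte markers, 6 of 9, were at 314 to 541 CPM and 93.2 to 168 CPM, and 3 fell (5 without AP20187 RNA library 2, 2 without vehicle RNA library 3 or AP20187 RNA library 1). Schwann cell markers, 7 of 10, were at 400 to 488 CPM and 543 to 827 CPM, and 5 fell and Sox10, which epithelial cells of the gland can also express, rose. Macrophage and leukocyte markers, 5 of 12, did not move in 1 direction. Their sum was 365 to 866 CPM with vehicle and 1129 to 1424 CPM with AP20187, most of it Cd14, at 464 ± 245 and 1242 ± 172 CPM (SD, n = 3). Cd14 and Itgam rose, and neither passed without vehicle RNA library 1 or 3 or AP20187 RNA library 1. Ptprc, the pan-leukocyte marker, was at -0.96, Aif1 at -0.68 and Cd68 at -0.41 on the log2 scale, and none of these 3 passed (adjusted p = 0.0957, 0.185 and 0.159 by edgeR). Without vehicle RNA library 1 the count was 1 lower and 0 higher. None of 9 lymphocyte markers was among the genes analysed here.

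Luminal markers, 8 of 13, were at 3739 to 4745 CPM with vehicle and 6405 to 8902 CPM with AP20187. Of these 6 rose and Krt19 fell (4, 2 and 4 rose without vehicle RNA libraries 1 and 3 and AP20187 RNA library 1). Basal markers, 9 of 9, were at 4953 to 5723 CPM and 2765 to 4244 CPM, and 4 fell and Krt17 rose (2 fell without vehicle RNA library 1 or 3 or AP20187 RNA library 1, and 0 rose without the first 2 of these). Both epithelial layers were therefore well represented, and no marker was at 0 in all libraries of any group. The basal markers that fell were Krt14, Acta2, Myh11 and Mylk. Krt5 at 0.80 and Trp63 at 0.60 on the log2 scale did not pass (adjusted p = 0.0578 and 0.0534 by edgeR). Neither did Oxtr at 0.09 or Cnn1 at -0.48. The basal sum thus mixes genes that moved in unlike directions. Some genes serve in more than 1 list, such as Mylk and Myh11 in basal epithelium and smooth muscle. The part of these cell types in the results for the 4 genes was not tested.

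**Figure D4:**
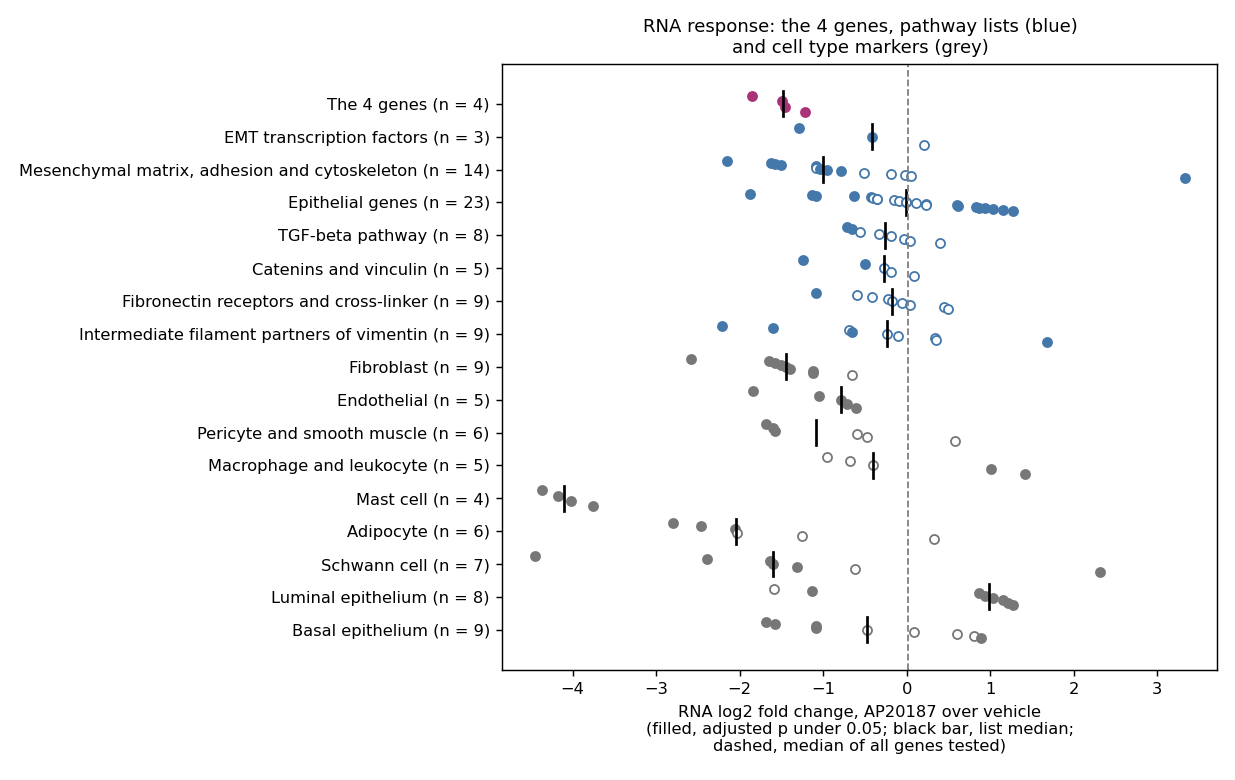
RNA log2 fold changes, AP20187 over vehicle, of the 4 genes, of the measured members of each pathway list (blue) and of each cell type marker list (grey); filled points have adjusted p under 0.05, black bars are list medians and the dashed line is the median of all genes tested, 0.01. The 4 genes lie between -1.86 and -1.21, a range that also holds the fibroblast median of -1.45 and the Schwann cell median of -1.60, while the luminal median is 0.98.

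Set against those summed markers within each library, the levels of the 4 genes depended on the marker list. Per 1000 CPM of fibroblast markers, Fn1 had 96.2, 99.2 and 107 RNA CPM with vehicle (lowest, median and highest) and 101, 105 and 107 with AP20187. Zeb2 had 10.9, 12.4 and 12.8 with vehicle and 11.3, 12.4 and 14.2 with AP20187. For Vim the values were 77.2, 88.3 and 106, then 99.9, 106 and 134. On this scale the treatments overlapped for all 4 genes, including Cdh2, whose median was nonetheless lower with AP20187 (1.48, 2.17 and 2.36, then 1.19, 1.22 and 2.15). Fn1 moved least, within a range of 96.2 to 107 over all 6 RNA libraries. The fibroblast sum, at 3872 to 6591 RNA CPM with vehicle, held much collagen I. Mean vehicle RNA was 1411 CPM for Col1a1 and 1728 CPM for Col1a2. Both also stand in the mesenchymal list above, so this scale is not a measure of fibroblast number.

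Per 1000 CPM of luminal markers, the treatments stayed apart for all 4 genes, with Vim at 83.9 to 156 RNA CPM with vehicle and 22.5 to 33.8 with AP20187. Fn1 was at 82.8 to 170 and 18.0 to 32.1, Zeb2 at 10.4 to 22.6 and 1.89 to 4.51, and Cdh2 at 1.81 to 2.60 and 0.205 to 0.684. Per 1000 CPM of basal markers they stayed apart as well, with Vim at 71.4 to 102 and 47.2 to 65.9, and Cdh2 at 1.69 to 2.18 and 0.431 to 1.09. Per 1000 CPM of endothelial markers, Vim overlapped (591 to 711 with vehicle, 508 to 596 with AP20187), and Fn1, Zeb2 and Cdh2 did not. The luminal sum was higher with AP20187 and each gene lower, both without overlap, so the luminal ratios had to stay apart. All ratios to markers are levels within libraries and carry no test.

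In footprints the ratios to fibroblast markers also overlapped between treatments for Vim (21.6 to 62.6 and 54.9 to 87.1), Zeb2 (0.740 to 2.74 and 1.76 to 4.70), Fn1 (24.4 to 49.9 and 34.0 to 58.8) and Cdh2 (1.16 to 2.60 and 1.30 to 1.98). The summed fibroblast footprint level ranged from 12582 to 33477 CPM over the vehicle libraries. With AP20187 that sum was 3478 to 5412 CPM. Collagen I was a large part of it here too, with mean vehicle footprints of 10205.5 CPM for Col1a1 and 5576 CPM for Col1a2.

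**Figure D5:**
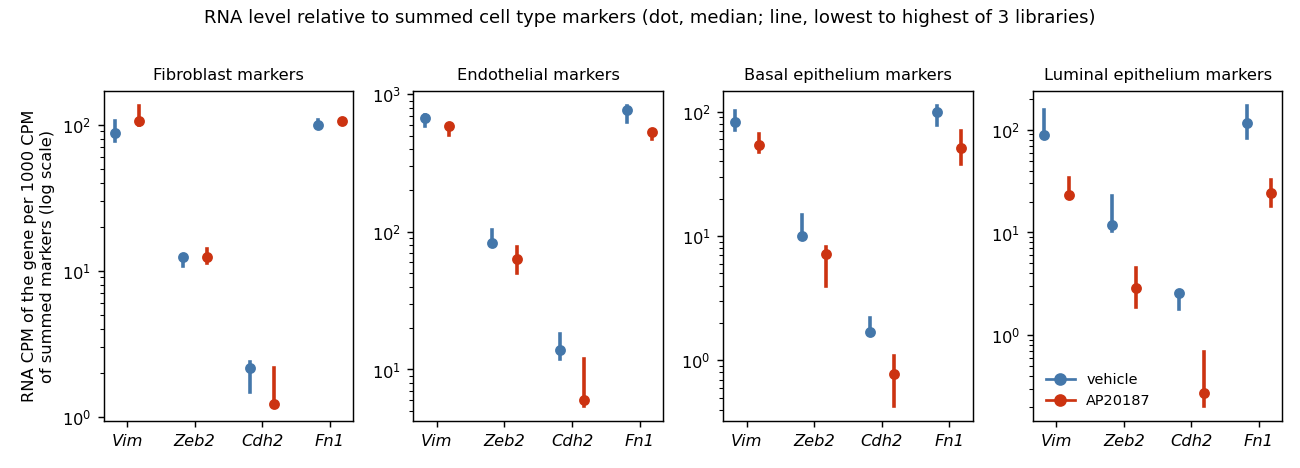
RNA CPM of each gene per 1000 CPM of summed fibroblast, endothelial, basal or luminal markers, on a log axis; dots are medians and lines run from the lowest to the highest of the 3 libraries of a treatment. The treatments overlap for all 4 genes against fibroblast markers and for none against luminal markers, where Vim goes from 83.9 to 156 down to 22.5 to 33.8. The luminal separation was fixed in advance, as the luminal sum rose and each gene fell without overlap.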

How the data were processed

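The authors deposited 1 table of unnormalized read counts for 7318 gene symbols in 12 libraries. The tools named in the submitters' processing notes are HTSeq, Bowtie2, STAR, cutadapt and bcl2fastq 1.8.3, with build mm10. What each did, the counted region, the strand and how genes were chosen is not given in the sources used here. Depth is the total over the listed genes. Genes kept by filterByExpr were fitted with edgeR 4.0.16 (R 4.3.3) by quasi-likelihood with TMM scaling, in the 6 RNA libraries, the 6 footprint libraries, or all 12 for translational efficiency (interaction of assay and treatment) and footprint to RNA ratios. P-values are 2-sided and adjusted by Benjamini-Hochberg over all genes tested, with a threshold of 0.05. SE is the absolute log2 fold change over the root of F. DESeq2 1.42.0 and limma 3.58.1 (voom) were alternatives, as were other scaling, no filter, the replicate block and leaving out each library. Named genes beside the 4 are the 5 nearest in pattern to each, and of each pathway list up to 4 past the threshold with the smallest p; Fgfr1 and Wnt1 check the transgenes. The members, lists and tests were chosen with earlier results of these data known. Footprint libraries of the same number deviated together across genes (r = 0.197, 0.269 and 0.38). Those of unlike number and treatment had r of -0.278 to 0.08. The numbers of footprint libraries were therefore read as pairs from the data, and the labels state no shared litter or day. The fit was tested on simulated data for the RNA response, the footprint response and the efficiency change. The ratios and the other steps had no such test.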

Additional observations from a re-analysis of the deposited data

How the results depend on the processing

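In RNA, all 4 genes kept their direction and their calls with RLE or total-count scaling, no filter, DESeq2, limma voom, the replicate block and each of 6 libraries left out (highest adjusted p without a library 0.0272 for Vim, 0.0365 for Zeb2, 0.0466 for Cdh2 and 0.0231 for Fn1, by edgeR). Zeb2 with all 12 libraries in the fit was the exception (-1.47, adjusted p = 0.0718), where 663 genes passed in place of 1919. Same-numbered RNA libraries of the 2 treatments gave r of 0.231, -0.045 and -0.068. RNA libraries of unlike number gave -0.225 to 0.214, so no pairs were read there. With the replicate block, which shares only a number in RNA, 1281 genes passed. The 4 genes then had adjusted p-values of 0.0255 to 0.043 by edgeR. In footprints 528 genes passed by DESeq2, 715 with the replicate block and 758 with all 12 libraries in the fit, in place of 179. Vim footprints then passed, at -1.35 by DESeq2 (adjusted p = 0.00222), -1.44 by limma voom (0.0359), -1.43 with the block (0.0013) and -1.41 with all 12 libraries (0.00899). The block changed no other call of the 4 genes. The efficiency change was called for 10 genes by DESeq2. The AP20187 ratio of Vim was 0.72 under total-count scaling, which moved the median log2 ratio of all genes with vehicle from 0.06 to -0.11. Leaving out 1 library gave 538 to 2214 genes passing in RNA (538 without vehicle library 3, 717 without vehicle library 1, 782 without AP20187 library 1), 0 to 186 in footprints and 0 to 1 for efficiency. Footprint log2 fold changes then ran from -1.72 to -1.09 for Vim, -1.66 to -0.66 for Zeb2, -2.57 to -2.08 for Cdh2 and -1.93 to -1.42 for Fn1. Efficiency changes ran from -0.56 to 0.12 for Vim, -0.22 to 0.77 for Zeb2 and -0.43 to 0.066 for Fn1, and these 3 reversed to 0.12 (Vim) and 0.066 (Fn1) without AP20187 footprint library 3 and to -0.22 (Zeb2) without library 2. Ratios of Vim ran from 0.77 to 1.17 with vehicle and from 0.41 to 1.02 with AP20187. The cause of these shifts was not tested. For the lists, with alternatives chosen after seeing the data, the number of mesenchymal genes lower in RNA was 3 with the replicate block and 4 with all 12 libraries, in place of 8, and 0 transcription factors of the transition were lower in either (1 with RLE scaling). Epithelial genes lower were 3 in both, in place of 5, and epithelial genes higher 4 with all 12 libraries, in place of 8. In the catenin list 1 was lower in both, in place of 2, and of the TGF-β list 0 with all 12 libraries, in place of 2. Fibronectin receptors lower were 2 with the block and by DESeq2, in place of 1, and 1 was higher by DESeq2 and with total-count scaling, as was 1 TGF-β gene by DESeq2, in place of 0. In footprints mesenchymal genes lower were 8 by DESeq2 and with the block and 7 with all 12 libraries, in place of 3, and the other lists moved by at most 2 genes. The lowest footprint count in a library was 17 for Zeb2 and 25 for Cdh2.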
